A study of Mus musculus with 441 samples.

Results

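The islet T follicular helper class was the largest class of CD4 T cells in a single-cell data set from mouse pancreatic islets. Its members were the cells that the authors' deposited annotation named T follicular helper cells, 172 of 441 cells in all. Of these, 111 came from the 184 cells of the HIP tetramer sort and 61 from the 257 cells of the Ins tetramer sort. A tetramer is a staining reagent in which MHC class II molecules with a bound peptide are joined, and it marks T cells whose receptor fits that peptide. Islets were freed from the pancreas with collagenase and broken into single cells, and each CD4 T cell specific for beta cells was sorted by FACS and made into a full-length SMART-Seq2 library. All cells of both sorts therefore shared tissue, cell gate and protocol. The annotation nevertheless names some of the sorted Ins cells B cells, and these were not set beside the class. The sorts differed by the tetramer and also by blocks of cell numbers, described below, and whether they shared mice is not given. The labels name HIP and Ins without spelling them out, and the sources used here do not give the strain, genotype, age, treatment or number of mice. Each sort counted as 1 sample, so no result below has a replicate check, no test was made, and intervals and SDs over cells cover counting error and cell spread only.

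T follicular helper cells help B cells make high-affinity antibody. They follow CXCL13 into the B cell follicle through the receptor Cxcr5, and they signal to B cells through CD40 ligand, cytokines such as IL-21 and receptors of the SLAM family. The fate depends on the repressor Bcl6, which Tcf7 and Lef1 favour, and it is opposed by Blimp-1, the product of Prdm1, by Id2 and by signals through the IL-2 receptor. In autoimmune diabetes, cells with this phenotype have been linked to responses against the insulin-producing beta cells.

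The class was set beside the 4 other T cell classes that held at least 20 cells of a sort. These were the 61 HIP and 25 Ins cells of cluster 2 (activated CD4 T cells in the annotation), the 115 Ins regulatory T cells (Tregs) and the 35 Ins dividing CD4 T cells. Expression is in transcript units that are scaled to transcript length and sum to 1000000 per cell (TPM), and a gene counted as detected from 1 TPM upwards. A difference is the mean of log2(TPM + 1) over the class minus that over a comparator class of the same sort. The authors drew the classes from expression, so differences between classes describe the class and support nothing. The class cells had a median of 1951 genes detected in HIP and 1963 in Ins, against 1862 to 2075 in cluster 2 and the Tregs and 3610 in the dividing cells. Sequencing depth cannot be read from TPM. Rn45s, the ribosomal RNA precursor, took a median of 1.94% and 2.43% of TPM in HIP and Ins class cells, with a highest value of 44.4%. Cell names are numbered, and blocks of 96 consecutive numbers held 1 sort each, blocks 1 and 3 HIP and blocks 2, 4 and 5 Ins. The labels do not say what a block was, and a difference between the sorts cannot be assigned to tetramer or block.

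Before any result, 4 of the 172 cells went against the label. These were 2 HIP cells of block 1 and 2 Ins cells of block 2. They were picked by at least 100 TPM of Cd79a or Cd79b and no detected Cd3d, Cd3e or Cd4. Cd79a and Cd79b encode the signalling chains of the B cell receptor. HIP cell number 56 held 4679 TPM of Cd79a, 5805 TPM of Cd79b and 942 TPM of Ms4a1, the gene of CD20. HIP cell number 68 held 3769 TPM of Cd79b with 53758 TPM of H2-Ab1, an MHC class II chain. Ins cell number 111 held 3823 TPM of Cd79a with 2249 TPM of H2-Ab1, and Ins cell number 124 held 5745 TPM of Cd79a with 40900 TPM of H2-Ab1. Outside the rule that picked them, all 4 cells carried class II transcripts and had no detected Lck or Tcf7. HIP cell number 56 held 2.49 TPM of Cd3g, a T cell receptor chain, which is above the detection limit. None of the 248 cells of the other T cell classes, in both sorts, met the same rule. In addition, 3 class cells without B cell transcripts by this rule had none of Cd3d, Cd3e and Cd3g detected. The same held for 0 of the 248 cells of the other T cell classes. The results are given with the 4 cells unless stated, and leaving them out changed neither count of shared genes given below.

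T cell identity genes were frequent over the whole class. A median of 10 of 12 such genes was detected per class cell in either sort, and 10 or 11 in the comparators. Their median of the mean difference was -0.87, against -0.05 over all genes, and none was lower than all 4 comparators by 1 or more. Cd3e, a signalling chain of the T cell receptor complex, was detected in 94.6% of the HIP and 93.4% of Ins class cells, and Lck, its kinase, in 91.9% and 95.1%. Cd4 was detected in 81.1% and 83.6%. Foxp3, the Treg factor, was found in 1.80% of the HIP class (exact 95% interval 0.219% to 6.36%) and in 13.1% of Ins class cells (5.84% to 24.2%), against 81.7% of Ins Tregs. Of 16 division genes, none was higher or lower by 1 or more than in all 4 comparators. A median of 2 was detected per class cell in either sort, against 13 per dividing cell and 2 or 3 in cluster 2 and the Tregs. At least 1 was detected in all but 12 of 111 HIP and 6 of 61 Ins class cells. Tyms, an enzyme of thymidylate synthesis and the most often detected of them, was found in 71.2% and 63.9% of class cells and 48.0% to 91.4% of the comparators, at a mean of 28.9 TPM and 11.0 TPM in the class and 117 TPM in the dividing cells. Mki67, the gene of the proliferation antigen Ki-67, was detected in 4.50% and 3.28% of class cells, against 65.7% of dividing cells.

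The 8 markers of the class were chosen with earlier results of these data known, so they describe the class and cannot check its label. They were Tcf7, Bcl6 and Id3, which encode transcriptional regulators, Cxcr5 and Cd83, which encode surface proteins, Tespa1, which acts in T cell receptor signalling, Asap1, an Arf GTPase-activating protein, and Nsg2, a small protein of endosomes. A median of 3 of the 8 was detected per HIP class cell (range 0 to 7) and of 4 per Ins class cell (0 to 8). At least 3 were found in 71.2% of the HIP (61.8% to 79.4%) and 70.5% of Ins class cells (57.4% to 81.5%). The same held for 0 of 61 HIP cluster 2 cells, 1 of 25 Ins cluster 2 cells, 0 of 115 Tregs and 7 of 35 dividing cells. Without the 4 cells with B cell transcripts the class values were 72.5% and 71.2%. No marker was detected in 6 class cells, which had a median of 1308.5 genes detected and a highest of 1735, fewer than most of the class.

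**Figure D1:**
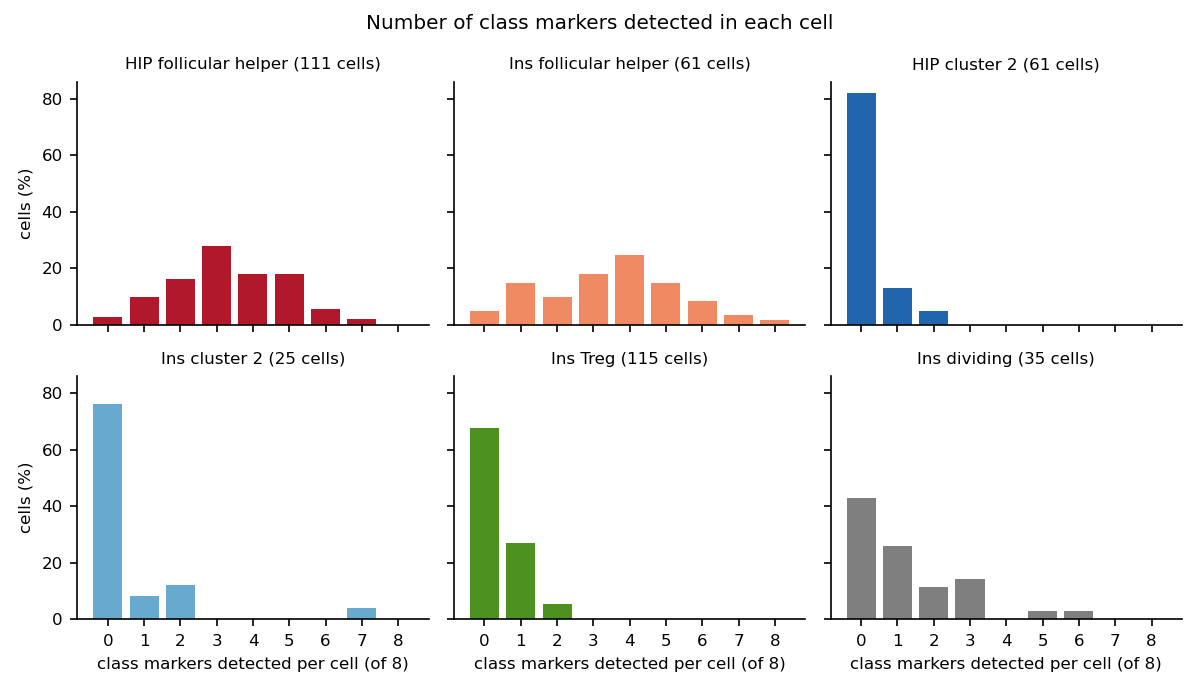
Share of cells (%) by the number of the 8 class markers detected, in 1 panel for each class and sort. Most class cells lie between 2 and 5 markers, and most cells of cluster 2 and of the Tregs lie at 0, with 1 Ins cluster 2 cell at 7.

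Sequence before the listed start sites is shown for Bcl6 and Id3, the repressor that marks the fate and a regulator detected in a smaller part of the same cells. Whether these stretches regulate the genes was not tested. RefSeq start sites of build GRCm38.p6, the same assembly as mm10, were available for 11 of the 18 genes looked up (the 8 markers and the other genes of the shared set below). The 250 bases before each start were searched on both strands for TTCNNNGAA, a motif bound by STAT factors, which relay IL-6 and IL-21 signals. They were also searched for CAGCTG, an E-box bound by E proteins, and for CTTTGAA and CTTTGAT, motifs of Tcf7 and Lef1. Bcl6 has 2 listed starts on the minus strand, and both windows held TTCNNNGAA, shown in capitals. The upstream window is chr16:23988853-23989102 and the downstream one chr16:23981284-23981533, while the Id3 window, chr4:136143572-136143821 on the plus strand, held none of the motifs.
Bcl6 upstream start: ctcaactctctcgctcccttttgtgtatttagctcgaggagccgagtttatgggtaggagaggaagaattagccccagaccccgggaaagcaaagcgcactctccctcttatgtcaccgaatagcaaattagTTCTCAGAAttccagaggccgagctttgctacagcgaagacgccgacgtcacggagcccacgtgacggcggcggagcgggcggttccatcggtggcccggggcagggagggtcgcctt
Bcl6 downstream start: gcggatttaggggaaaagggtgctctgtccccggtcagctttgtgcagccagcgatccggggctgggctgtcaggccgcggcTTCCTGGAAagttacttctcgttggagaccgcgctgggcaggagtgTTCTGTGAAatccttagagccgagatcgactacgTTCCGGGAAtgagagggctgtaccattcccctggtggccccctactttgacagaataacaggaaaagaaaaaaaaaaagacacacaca
Id3 start: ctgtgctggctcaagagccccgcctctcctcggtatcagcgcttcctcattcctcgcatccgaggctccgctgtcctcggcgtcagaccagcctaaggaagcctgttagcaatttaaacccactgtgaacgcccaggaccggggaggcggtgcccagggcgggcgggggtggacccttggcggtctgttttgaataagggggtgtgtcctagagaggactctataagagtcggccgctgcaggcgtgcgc

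Over the 18 windows of the 11 genes, TTCNNNGAA lay in 3 (both of Bcl6 and 1 of Nsg2), against 7.02% of all 32851 windows of this length. CAGCTG lay in 2 windows, of Dennd2d and Tcf7, against 13.0% of all windows, and the pair of Tcf7 and Lef1 motifs lay in none, against 4.46% and 3.21%. A match is a string of letters in a window and says nothing of binding, and a window without one says nothing of the factor.

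The programme that both sorts shared was small on the higher side. Among 1560 genes detected in at least 25% of the class cells of each sort, 16 (1.03%) were higher by 1 or more than in all 4 comparator classes. In order of the smallest of their 4 differences they were Tcf7, Dennd2d, Tnfrsf26, Asap1, Tespa1, Cxcr5, Akap8l, Ehd3, Il16, Bcl6, Tnfsf8, Nsg2, Cd40lg, Utrn, Slamf6 and Rab37. The genes nearest below the limit were Tbc1d4 at 0.86, Slc9a9 at 0.81 and Rnf145 at 0.70. Without the minimum share of cells, 21 of 13561 genes were higher by this rule (0.155%), Id3 and Cd83 among them. The same 16 genes were found without the 4 cells with B cell transcripts. A pseudocount of 10 TPM left 9 genes, all among the 16, while leaving out the dividing comparator gave 29 and pooling all other T cells gave 28, both with all 16. With a block left out, 11 (without block 5) to 16 of the 16 were found again. In 5 genes, Tcf7, Tnfrsf26, Asap1, Tespa1 and Bcl6, every block of the class lay above every block of the comparators, against 6 of all 1560 genes (0.385%). The 5 are part of those 6, and the same cells picked the 16 genes, so the blocks are no independent check.

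**Figure D2:**
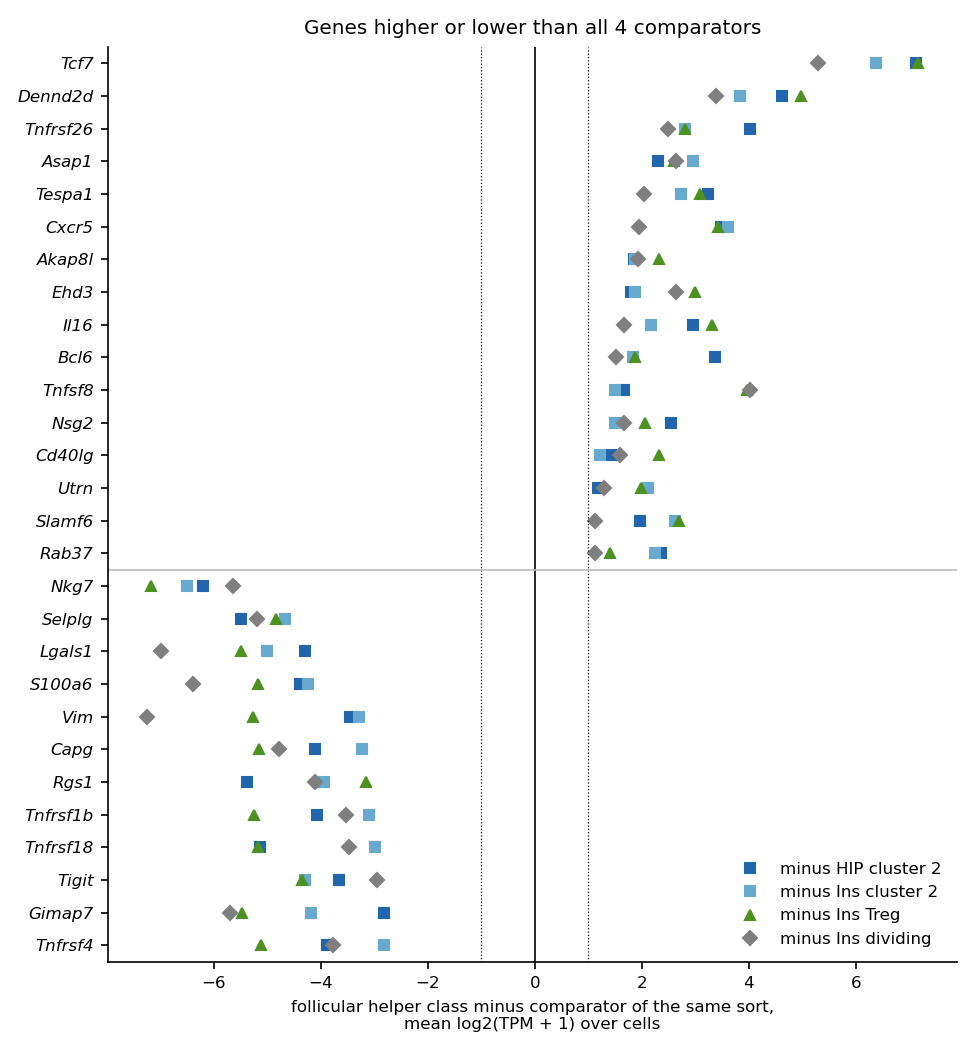
Differences in mean log2(TPM + 1) over cells, the follicular helper class minus each of 4 comparators of the same sort, for the 16 shared higher genes and the first 12 shared lower genes. Dotted lines mark differences of -1 and 1, and Tcf7 and Nkg7 lie farthest from 0 at the ends nearest it, at 5.29 and -5.64.

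Among transcription regulators Tcf7 led. It encodes TCF-1, a factor of naive, memory and follicular helper T cells. It was detected in 80.2% of the HIP (71.5% to 87.1%) and 77.0% of Ins class cells (64.5% to 86.8%), and the detecting cells reached a median of 941 TPM and 985 TPM and a highest of 5960 TPM. Its mean was 1035 ± 1150 TPM in HIP (SD over 111 cells) and 887 ± 879 TPM in Ins (SD over 61 cells). In the comparators it was detected in 6.56% of HIP cluster 2, 12.0% of Ins cluster 2, 2.61% of Tregs and 25.7% of dividing cells. Over the 5 blocks of class cells its share ran from 62.5% to 95.5%, and over the comparator blocks from 0% to 40.0%, with no overlap. The 4 differences were 7.13 and 6.39 against HIP and Ins cluster 2, 7.17 against Tregs and 5.29 against dividing cells.

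Bcl6, the repressor that defines the follicular helper fate, was detected in 47.7% of the HIP (38.2% to 57.4%) and 39.3% of Ins class cells (27.1% to 52.7%). Its shares in the comparators were 4.92%, 12.0%, 12.2% and 20.0%, in the same order as for Tcf7. Detecting class cells held a median of 297 TPM (HIP) and 216 TPM (Ins), below those of Tcf7. Bcl6 differed least from the dividing cells, by 1.53, and most from HIP cluster 2, by 3.36. The interval of its share in dividing cells, 8.44% to 36.9%, overlapped that of the Ins class. Id3, an inhibitor of E proteins, was detected in 23.4% and 27.9% of class cells and in none of 61 HIP cluster 2 cells and 115 Tregs, which allows shares of up to 4.92% and 2.61%. Where detected it was high, with a median of 1294 TPM (HIP) and 1026 TPM (Ins), above Bcl6 and Tcf7. Akap8l, a nuclear scaffold protein, was detected in 41.4% and 44.3% of class cells and in 13.9% to 25.7% of the comparators.

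Of the surface receptors, Cxcr5 was detected in 40.5% of the HIP (31.3% to 50.3%) and 45.9% of Ins class cells (33.1% to 59.2%). It was found in 3.28% and 8.00% of cluster 2 and 11.3% of Tregs, but in 37.1% of dividing cells (21.5% to 55.1%), whose interval overlaps those of the class. The levels differed there: detecting cells held a median of 1092 TPM and 921 TPM in the class and 145 TPM in the dividing cells. The mean was 517 ± 993 TPM over the 61 Ins class cells (SD over cells), with a highest cell of 6321 TPM. Block shares of Cxcr5 ran from 25.4% to 57.7% in the class and up to 50.0% in the comparators and so overlapped. Tnfrsf26, a TNF receptor relative, was detected in 49.5% and 39.3% of class cells and 3.28% to 11.4% of the comparators. Slamf6, a SLAM family receptor, was detected in 52.3% and 62.3% of class cells and 31.1% to 57.1% of the comparators, with its smallest difference, 1.13, against the dividing cells. Cd83 was detected in 20.7% and 32.8% of class cells and 1.74% to 6.56% of the comparators. Of its TPM, 22.9% in HIP and 23.3% in Ins lay in the cells with B cell transcripts.

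The ligands of the shared set act on B cells and other lymphocytes. Cd40lg, which encodes CD40 ligand, was detected in 36.0% of the HIP (27.1% to 45.7%) and 27.9% of Ins class cells (17.1% to 40.8%), against 21.3% and 12.0% of cluster 2, 0.870% of Tregs and 11.4% of dividing cells. Its differences from cluster 2 were 1.42 and 1.22. Tnfsf8, CD30 ligand, was detected in 39.6% and 50.8% of class cells and in 16.4% and 36.0% of cluster 2, 1.74% of Tregs and none of 35 dividing cells. Il16, a cytokine precursor, was widespread, at 66.7% and 73.8% of class cells and 37.7% to 68.6% of the comparators. Its median level in detecting cells was 460 TPM in the Ins class and 128 TPM in the dividing cells. For both Cd40lg and Il16 the intervals of the class overlapped those of comparators of the same sort. For Tnfsf8 the interval of Ins cluster 2, 18.0% to 57.5%, held the share of the Ins class.

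Signalling and membrane traffic genes made up the rest of the shared set. Tespa1 was detected in 45.0% (35.6% to 54.8%) and 47.5% (34.6% to 60.7%) of class cells, 1.64% and 8.00% of cluster 2, 1.74% of Tregs and 20.0% of dividing cells. The interval of Tespa1 in dividing cells overlapped that of the Ins class. Asap1 was detected in 38.7% and 45.9% of class cells, in no cluster 2 cell of either sort, and in 7.83% and 5.71% of the other comparators. Nsg2 was detected in 36.9% and 29.5% of class cells and in 0% to 8.57% of the comparators. The highest comparator shares of Asap1 and Nsg2 lay below 10%, and those of Tespa1 and of the genes that follow at 20.0% or above. Dennd2d, which activates Rab proteins, was detected in 64.9% and 65.6% of class cells and 10.4% to 42.9% of the comparators. Ehd3, of endosome recycling, was detected in 38.7% and 37.7% of class cells and 3.48% to 20.0% of the comparators. Rab37, a Rab protein of secretory vesicles, was detected in 36.9% and 37.7%, against 12.0% to 28.6%. The interval of Rab37 in dividing cells, 14.6% to 46.3%, held the share of the Ins class. Utrn, the dystrophin relative utrophin, was detected in 45.0% and 47.5%, against 12.0% to 36.1%. Gene models on the other strand or the same strand overlap Cxcr5 (Bcl9l), Dennd2d (Cept1), Il16 (Stard5) and Rab37 (Cd300lf). SMART-Seq2 does not mark the strand, so shared reads of these pairs cannot be told apart, and the values of these genes are uncertain to that extent.

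**Figure D3:**
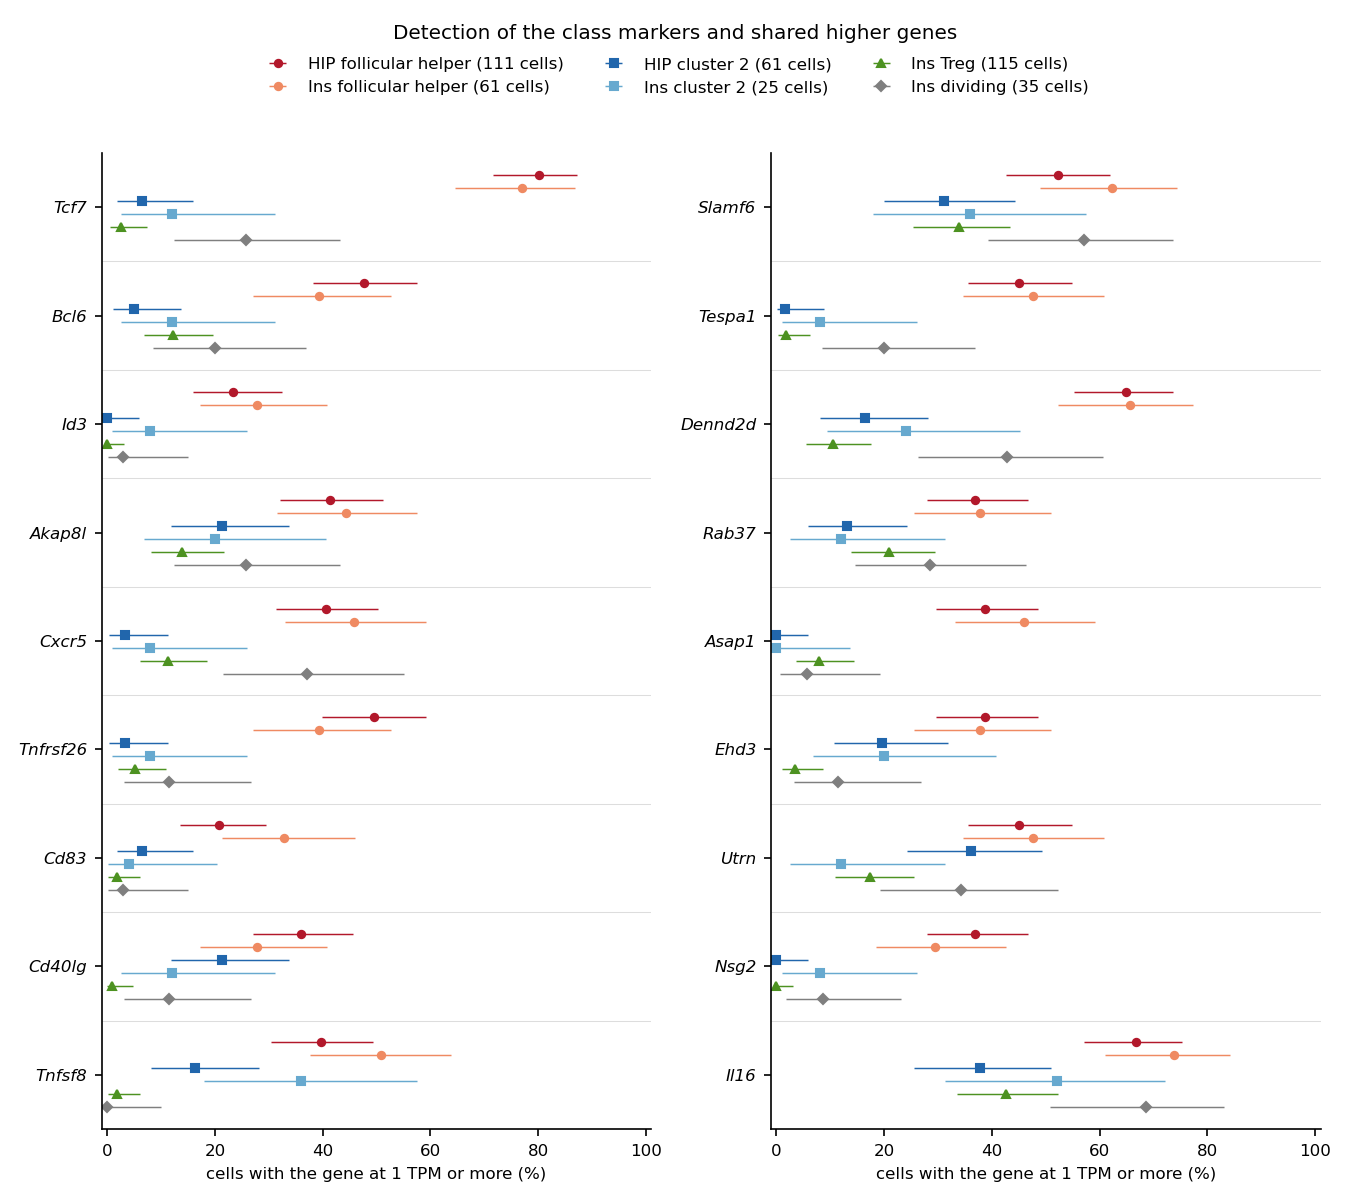
Percentage of cells with each class marker or shared higher gene at 1 TPM or more, with exact 95% intervals for counting error, in the class (circles) and the 4 comparators. Tcf7 stands apart at 80.2% and 77.0%, while for Cxcr5, Slamf6 and Il16 the dividing cells lie within the intervals of the class.

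Textbook markers of follicular helper cells were not uniformly higher. Of a list of 21 such genes, 5 were higher than all 4 comparators by the rule without a minimum share (Cxcr5, Bcl6, Cd40lg, Slamf6 and Tnfsf8), 1 was lower (Maf) and 15 were neither. The list's median of the mean difference was 0.61, against -0.05 over all 13561 genes. By the same rule 0.155% of those genes were higher and 0.811% lower. Cxcr5 and Bcl6 are class markers, which were chosen with these data known. Pdcd1, which encodes PD-1, was detected in 62.2% of the HIP and 55.7% of Ins class cells and in 62.3% and 60.0% of cluster 2, with differences of -0.12 and -0.34 from it. Icos, the costimulator, was detected in 46.8% and 54.1% of class cells and in 73.9% of Tregs, from which it differed by -2.40. Il21, the cytokine of the fate, was detected in 23.4% (15.9% to 32.4%) and 27.9% (17.1% to 40.8%) of class cells, in 45.9% and 32.0% of cluster 2 and in 2.61% of Tregs. The shares of Pdcd1 and Il21 in cluster 2 lay above those of the class of the same sort, with overlapping intervals except for Il21 in HIP, where cluster 2 began at 33.1%. Sh2d1a, the adaptor SAP of SLAM receptors, was detected in 65.8% and 50.8% of class cells, 36.1% and 8.00% of cluster 2, 32.2% of Tregs and 60.0% of dividing cells. It was higher than cluster 2 by 3.59 and 4.03 and than Tregs by 2.07, but differed from the dividing cells by -0.25. Maf, a factor for IL-21 production, was detected in 34.2% and 32.8% of class cells and 56.0% to 71.4% of the comparators, and its differences were -1.51 to -1.94. Ascl2, a factor that induces Cxcr5, was detected in 4.50% and 3.28% of class cells and in none of the comparator cells. Il4, the classical helper cytokine, was found in 0.901% and 1.64% of class cells.

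Of 16 factors that favour the fate, 3 were higher than all comparators (Bcl6, Tcf7 and Id3) and 1 lower (Maf), with a median of 0.20. Those 3 are class markers, and over all genes 0.155% were higher and 0.811% lower by the same rule. Tox2 was detected in 49.5% of the HIP and 32.8% of Ins class cells, and was 2.69 above HIP cluster 2 but differed by -0.05 from Ins cluster 2. Lef1, the partner of Tcf7, was detected in 18.0% and 27.9% of class cells and 6.56% to 34.3% of the comparators, a far smaller separation than that of Tcf7. Stat3, a target of IL-6 and IL-21 signals, was even across classes, at 48.6% and 52.5% of class cells and 50.8% to 68.6% of the comparators.

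Genes that oppose the fate were mixed. Of 14 such genes, 3 were lower than all 4 comparators (Prdm1, Id2 and Il2rb), against 0.811% of all genes by the same rule, 11 were neither lower nor higher, and the median was -0.49. Foxp1, a factor that restrains the fate, differed by 0.34 to 1.46 and so lay above each comparator in mean. Stat5a, which relays IL-2 signals, differed by -0.04 to 1.74 and Stat5b by -0.09 to 0.65. Prdm1, which encodes Blimp-1, was detected in 1 of 111 HIP class cells, 0.901% (0.0228% to 4.92%), at 22.0 TPM, and in 3.28% of Ins class cells (0.400% to 11.3%). It was detected in 41.0% of HIP cluster 2, 28.0% of Ins cluster 2, 37.4% of Tregs and 48.6% of dividing cells. No class cell held both Prdm1 and Bcl6 or both Prdm1 and Tcf7, which with 0 of 111 and 0 of 61 cells allows shares of up to 2.70% and 4.92%. Products of the single shares gave fewer than 2 such cells in each sort, so an absence of the pairs was not detectable at these numbers. Id2 was detected in 24.3% and 21.3% of class cells and 36.0% to 62.9% of the comparators. Il2rb, the IL-2 receptor beta chain, was detected in 54.1% and 63.9%, against 76.0% to 100%. Tbx21, the Th1 factor, was detected in 7.21% and 9.84% of class cells and did not differ by the rule, with differences of -2.51 to 0.21.

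**Figure D4:**
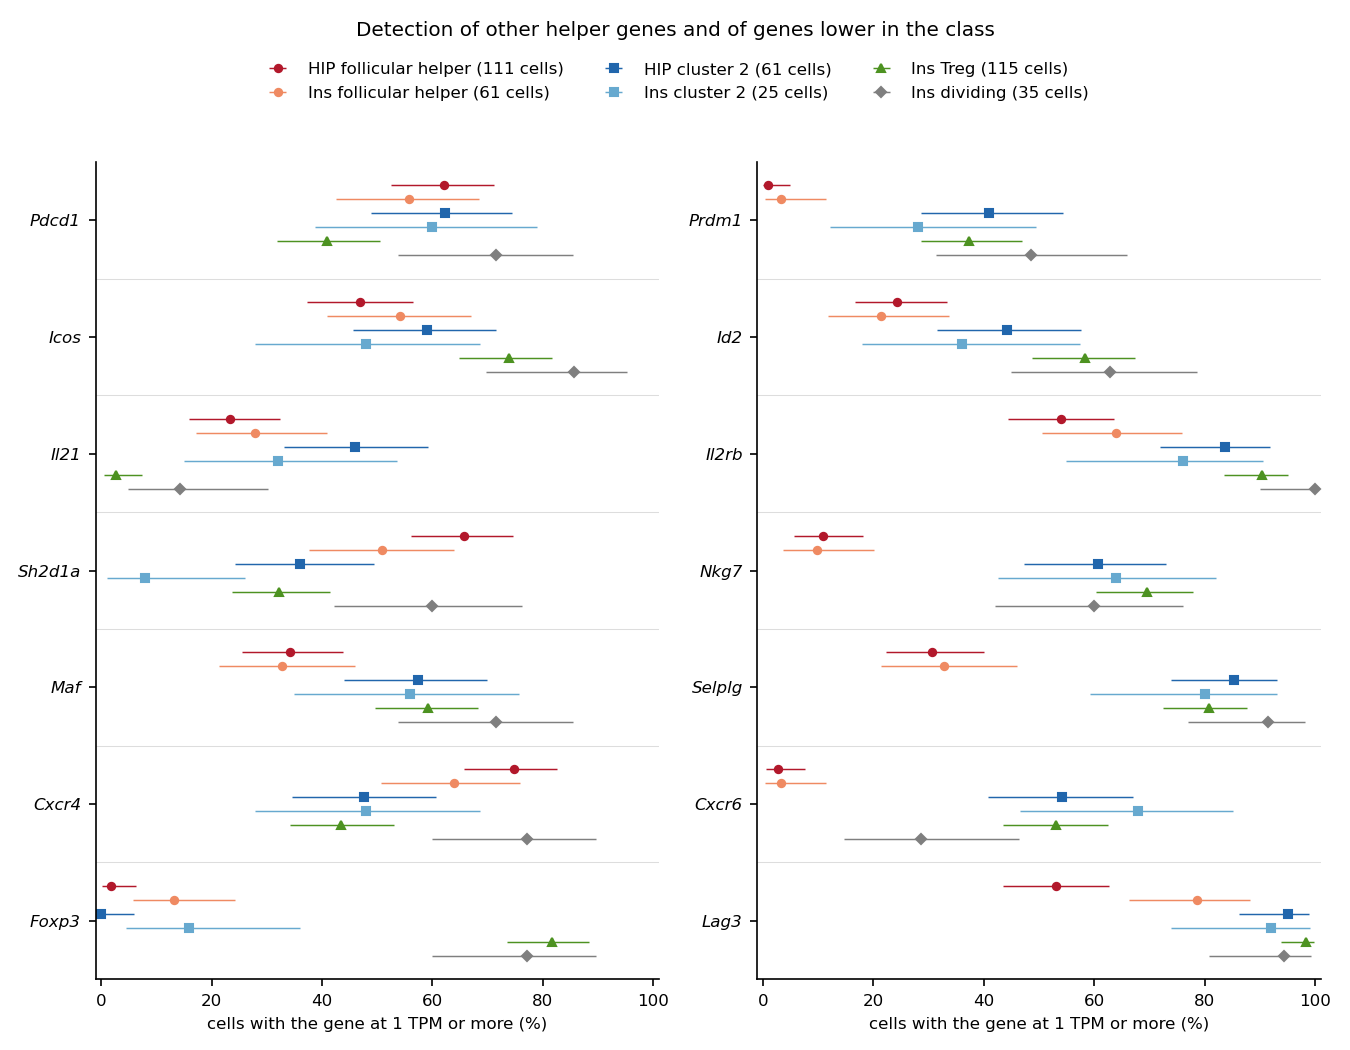
Percentage of cells with each gene at 1 TPM or more, with exact 95% intervals for counting error, for further helper genes and Foxp3 (left) and genes lower in the class (right). Prdm1 and Cxcr6 lie below 5% in both sorts of the class and above 25% in every comparator, whereas Pdcd1 in the class lies within the range of the comparators.

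Molecules of B cell help were mixed. Of the 16 in the table, Cd40lg, Slamf6 and Tnfsf8 were higher than all 4 comparators and Tnfrsf4, the OX40 receptor, was lower, with a median of 0.20. The shares over all genes were 0.155% higher and 0.811% lower. Tnfrsf4 was detected in 36.9% and 44.3% of class cells and 68.9% to 87.8% of the comparators. Per cell, a median of 6 of the 16 was detected in either sort of the class, and 6 and 5 in HIP and Ins cluster 2. Cd84, a SLAM receptor, was detected in 55.0% and 60.7% of class cells and 34.3% to 52.0% of the comparators. Slamf1 ran the other way, at 6.31% and 8.20% against 12.0% to 40.0%.

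More genes were lower than higher, though the 2 rules set their minimum share in different cells. The dividing cells, with the most genes detected, entered both rules. Against them the median difference over all genes was -0.23 and 24.0% of genes lay above 0, compared with 44.8% to 49.2% against the other comparators. Without the dividing cells 29 genes were higher and 101 lower. Among 1389 genes seen in 25% or more of the cells of every comparator class, 97 (6.98%) were lower in the class by 1 or more against all 4, and in 37 of them every class block lay below every comparator block, against 40 of all 1389 genes (2.88%). Over every gene in the table, without a minimum share, 110 were lower by this rule (0.811%) and 21 higher (0.155%). Without the cells with B cell transcripts 97 genes were again lower, 95 of them the same. A pseudocount of 10 TPM left 54, all among the 97, and against all other T cells pooled 250 were lower, 94 of the 97 among them. With a block left out, 73 to 90 of the 97 were found again. The 37 genes with separate blocks are part of the 40, and the same cells picked them, so the blocks are no independent check. Nkg7, a cytotoxic granule protein, stood first. It was detected in 10.8% of the HIP (5.71% to 18.1%) and 9.84% of Ins class cells (3.70% to 20.2%) and in 60.0% to 69.6% of the comparators, with differences of -5.64 to -7.18. Its block shares ran from 6.25% to 13.6% in the class and from 37.5% to 85.7% in the comparators, with no overlap. The few class cells with Nkg7 held a median of 1752 TPM (HIP) and 939 TPM (Ins).

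Selplg, which encodes the selectin ligand PSGL-1, was detected in 30.6% and 32.8% of class cells and 80.0% to 91.4% of the comparators, with differences of -4.68 to -5.48. It was the only 1 of 13 adhesion genes lower than all comparators. Itga4, Itgal, Itgb2 and Cd2 were each detected in over 50% of class cells of both sorts. The list's median was -0.81. By the same rule 0.155% of all genes were higher and 0.811% lower, here and for the receptors that follow. Among 14 chemokine and egress receptors, only Cxcr5 was higher than all comparators. Cxcr3, Cxcr6, Ccr2 and Ccr8 were among those lower than all comparators. Cxcr6, a receptor of tissue-resident effector cells, was detected in 2.70% (0.561% to 7.70%) and 3.28% (0.400% to 11.3%) of class cells and 28.6% to 68.0% of the comparators. Cxcr3, a receptor for interferon-induced chemokines, was detected in 31.5% and 26.2%, against 52.0% to 94.3%. Cxcr4 was frequent in the class, at 74.8% and 63.9%, but differed from the dividing cells by 0.04.

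Among 21 Th1 effector genes, 6 were lower than all comparators (Ccl5, Nkg7, Cxcr6, S100a4, S100a6 and Lgals1), none was higher, and the median was -1.06. The shares over all genes, for this list and the Treg list below, were 0.811% lower and 0.155% higher. Lgals1, galectin-1, was still detected in 60.4% and 45.9% of class cells, against 88.0% to 100% elsewhere, and S100a6, a calcium-binding protein, in 32.4% and 16.4%, against 56.0% to 82.9%. Ifng was detected in 9.91% of HIP class cells and in none of 61 Ins class cells, which allows up to 4.92%, and Gzmb in no class cell of either sort. Of 14 Treg genes, Tnfrsf18 (GITR), Ctla4 and Capg were lower than all comparators and none was higher. Tnfrsf18 was detected in 27.9% and 47.5% of class cells and 73.8% to 90.4% of the comparators. Other genes among the first 12 were Vim, vimentin, at 34.2% and 29.5% against 56.0% to 97.1%, and Rgs1, which dampens chemokine receptor signals, at 27.9% and 8.20% against 43.5% to 75.4%. Tnfrsf1b, TNF receptor type II, lay at 19.8% and 26.2%, against 56.0% to 82.6%, and Gimap7 at 18.0% and 29.5%, against 44.3% to 91.4%.

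Inhibitory receptors were split. Of 17 inhibitory and anergy genes, Ctla4, Lag3, Tigit and Ndfip1 were lower than all comparators and none was higher, and the median of 0.02 lay near that of all genes. By the same rule 0.811% of all genes were lower and 0.155% higher, which holds for each list in this paragraph. Tigit was nevertheless detected in 78.4% and 77.0% of class cells, against 97.1% to 100%. Its median in detecting class cells was 2124 TPM and 1886 TPM, close to the 2232 TPM of the dividing cells and under the 4670 TPM to 4816 TPM of the others. Lag3 was detected in 53.2% and 78.7% of class cells, against 92.0% to 98.3%. Of the antigen receptor response genes, 2 of 18 were lower than all comparators (Tnfrsf4 and Cd6), none was higher, and Nr4a1 was detected in 12.6% and 4.92% of class cells, against 8.00% to 31.4%. Of 15 naive and central memory genes, Tcf7 was the only 1 higher than all comparators and none was lower, with a median of 0.16. Cd27, a costimulatory receptor, was detected in 45.0% and 50.8% of class cells and 39.3% to 94.3% of the comparators. It differed by 0.74 and -0.60 from cluster 2 but by -3.23 from Tregs and -3.43 from dividing cells. Ccr7, the lymph node homing receptor, was detected in 11.7% and 24.6% of class cells.

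Single cells combined these genes to differing degrees; the pairs below were chosen with the data in view. Cxcr5 and Pdcd1 together, the usual surface phenotype, were detected in 31.5% of the HIP (23.0% to 41.0%) and 27.9% of Ins class cells (17.1% to 40.8%). They were found together in 1.64% and 8.00% of cluster 2, 8.70% of Tregs and 34.3% of dividing cells, so the pair did not separate the class from the dividing cells. Tcf7 and Pdcd1 together were detected in 52.3% and 44.3% of class cells, 3.28% and 4.00% of cluster 2, none of 115 Tregs and 20.0% of dividing cells. Tcf7 and Slamf6 together were detected in 45.0% and 55.7%, against 1.74% to 20.0%. Cxcr5 and Bcl6 together were detected in 23.4% and 21.3%, against 0% to 8.57%. Il21 and Cxcr5 together were found in 9.01% (4.41% to 15.9%) and 11.5% (4.74% to 22.2%) of class cells and in 5.71% of dividing cells, whose interval reached 19.2% and overlapped those of the class. None of 61 HIP and 25 Ins cluster 2 cells and 115 Tregs held both, which allows shares of up to 4.92%, 12.0% and 2.61%. Products of the single shares gave 28.0 HIP and 15.6 Ins class cells for Cxcr5 and Pdcd1, against 35 and 17 found. For Tcf7 and Pdcd1 they gave 55.3 and 26.2, against 58 and 27. For Tcf7 and Slamf6 they gave 46.5 and 29.3, against 50 and 34. For Cxcr5 and Bcl6 they gave 21.5 and 11.0, against 26 and 13. For Il21 and Cxcr5 they gave 10.5 and 7.80, against 10 and 7. Contrasts of pairs between classes therefore also carry those of the single genes.

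The number of markers a cell showed followed the number of genes it showed. The rank correlation (Spearman) was 0.41 over 111 HIP cells and 0.41 over 61 Ins cells, a description only, as both rest on the same capture of each cell. Cells with 0 or 1 marker had a median of 1366 genes in HIP and 1739 in Ins, and cells with 5 or more had 2136 and 2293. Of the 28 marker pairs, 18 were detected together in more cells than the product of their shares in both sorts, 10 among cells with more genes and 14 among cells with fewer genes. Tespa1 with Asap1, for example, met in 23 HIP cells against a product of 19.4 and in 19 Ins cells against 13.3. Bcl6 with Asap1 ran the other way in HIP, with 14 cells against 20.5, and met in 11 Ins cells against 11.0. The summed counts of joint detection were 1.07 and 1.16 times the products, and 1.01 and 1.08 times among cells with more genes. Joint detection beyond the shares was therefore slight and smaller among cells with more genes.

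Spread among the class cells was measured within each sort as the coefficient of variation (CV) of TPM, relative to the median CV of genes of like mean. Of 2503 genes with a mean of at least 50 TPM in both sorts, 29 (1.16%) were in the highest 5% of both. The set moved with the cells and the measure: without block 1 there were 14 genes, 6 of them among the 29, and by the SD of log2 values 48, with 1 among the 29. The median CV over all 2503 genes was 2.39 in HIP and 2.26 in Ins. H2-Ab1, Cd74, H2-Aa, Penk, H2-Eb1, Spp1, Cd79b, Mus81, Gzmk, H2-DMb2, Ifi27l2a and Ccnl2 led. Of H2-Ab1 TPM, 95.6% in HIP and 99.9% in Ins lay in the 4 cells with B cell transcripts, and of Cd74, the class II chaperone, 98.1% and 95.4%. The class II genes thus led through those cells. So did Cd79b, but the cells were picked by Cd79a or Cd79b, so its share in them was nearly fixed by that rule. Without them 29 genes were again spread, 20 of them the same, and Penk, Mus81, Spp1, Gzmk and Ccnl2 led.

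Penk, which encodes the opioid precursor proenkephalin, was detected in 12.6% of the HIP (7.07% to 20.3%) and 3.28% of Ins class cells (0.400% to 11.3%). Where detected it was high, with a median of 2989 TPM in HIP and a highest of 16511 TPM, so that 55.0% of its HIP total lay in 3 cells. The same gene was detected in 4.00% to 13.1% of the comparators. Spp1, osteopontin, had 95.1% of its HIP total in 3 cells and Mus81, a DNA repair nuclease, 89.7%. In Ins, the 3 highest cells held 100% of the totals of Penk, Spp1 and Gzmk and 93.2% of that of Mus81. The spread of these genes in both sorts thus rests on few cells. Gzmk, granzyme K, was detected in 9.01% of the HIP and 1.64% of Ins class cells, against 42.6% of HIP cluster 2. Ifi27l2a, an interferon-induced gene, differed from these, since only 19.9% of its HIP total lay in 3 cells and its mean was 1936 TPM (HIP) and 2671 TPM (Ins). The markers of the class differed in spread. Cd83 ranked 13th of the 29 genes, with CVs of 3.88 in HIP and 2.36 in Ins, while the other markers were not among the 29. Without the 4 cells with B cell transcripts Cd83 was no longer in the highest 5% of both sorts. Cxcr5 and Id3 passed the 5% limit in Ins only, with log2 ratios to genes of like mean of 0.65 and 0.62 against a limit of 0.58. Without the cells with B cell transcripts, which held 10.2% of Cxcr5 TPM in Ins, these ratios were 0.47 and 0.63. The CV of Tcf7 was 1.11 in HIP and 0.99 in Ins, and that of Bcl6 1.93 and 2.54. Tcf7 had 12.3% and 17.4% of its TPM in 3 cells, against 26.7% and 50.9% for Bcl6 and 31.1% and 51.5% for Asap1.

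**Figure D5:**
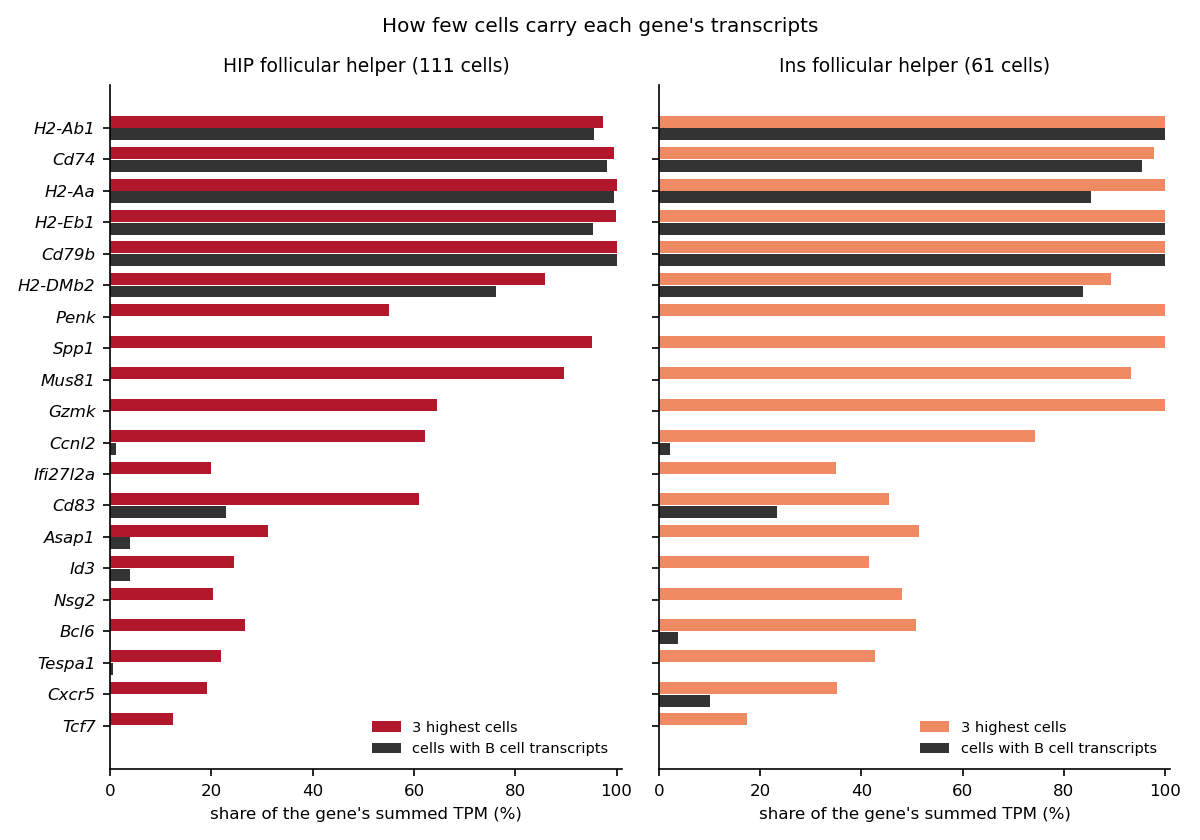
Share of a gene's summed TPM (%) that lay in its 3 highest cells (coloured bars) and in the cells with B cell transcripts (black bars), for 12 spread genes and the 8 class markers in HIP (left) and Ins (right). Class II genes and Cd79b lie mostly in the cells with B cell transcripts, which were picked by Cd79a or Cd79b. Penk, Spp1, Mus81 and Gzmk lie in other cells, and Tcf7 is the most evenly shared of the genes drawn.

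The most even genes, by the same ratio, were led by H2-Bl and H2-Q10, with CVs of 0.77 and 0.68 in HIP. These MHC class I genes are near-identical to others, so reads may have been divided among them and their evenness is uncertain. Ncoa3, a nuclear receptor coactivator, Cpne8, a copine, and Klf13, a zinc finger factor, followed with CVs between 0.92 and 1.30.

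Marker genes of other tissues were detected unevenly in the class. Of 5 islet endocrine genes in the table, none reached 1 TPM in 93 of 111 HIP and 56 of 61 Ins class cells, and their summed level ran from 0 to 11883 TPM. Ins2, an insulin gene, was detected in 10.8% and 4.92% of class cells and in 4.00% to 22.9% of the comparators. Of 6 myeloid genes, 62 of 111 HIP and 35 of 61 Ins class cells showed none, and their summed level ran from 0 to 4500 TPM, against 0 to 9443 TPM in the comparators. Most of these detections were of Cst3, the protease inhibitor cystatin C, which was found in 41.4% and 37.7% of class cells and 60.0% to 88.6% of the comparators and was lower than all 4 of them. Cd68, a lysosomal protein of macrophages, was found in 5.41% and 3.28%. C1qb, Fcer1g and Itgax were under 1 TPM in every class cell, and Lyz2 was found in 1 Ins class cell. Of the 5 acinar and duct genes, 103 of 111 HIP and 59 of 61 Ins class cells showed none, and 86 and 48 showed neither of 2 endothelial genes. The part of free islet RNA in any value was not tested.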

How the data were processed

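The authors deposited 1 table of natural log values for 13561 genes in 441 cells and a table of each cell's class, sort and number of genes. TopHat, Bowtie, RSEM 1.2.8 and the build mm10 are named without roles, per the submitters' processing notes. For read filters and the clustering method, the sources used here give nothing. The planned unit was linear TPM. The deposited values fitted ln(TPM/10 + 1), were turned back into TPM, and summed to 1000000 within 1 in 441 of 441 cells. Class and sort in the authors' deposited annotation matched the labels in 441 of 441 cells. No further filter on cells was set and no doublet caller was run.

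Intervals of shares are exact (Clopper-Pearson, 95%), and the limit set by 3 cells stands beside a share of 0. PCR reads without molecular identifiers are not independent molecules. The members and lists were chosen with earlier results of these data known. Genes named were the 8 class markers, up to 20 shared higher and 12 shared lower genes by the smallest difference, 12 spread genes, and members of the gene lists. Receptor segments, unnamed models, ribosomal and mitochondrial genes were left out. Some members of the gene lists are not reported here by name, though the counts include them. List members beyond the 5 most detected of each list, and the gene pairs, were chosen after their values were seen. Scripts (Python 3.11.15, pandas 2.3.3, scipy 1.17.1) were tested on simulated data. Alternatives covered thresholds, pseudocount, filters, comparators and each block left out. Positions and gene overlaps come from GENCODE for GRCm38.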

Additional observations from a re-analysis of the deposited data

How the results depend on the processing

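The counts of shared higher and lower genes, 16 and 97, stayed within 1.5 times when any block, Rn45s, cells under 1500 genes, the minimum share or the cells with B cell transcripts were left out. The members moved more than the counts. With a block left out, 11 (without block 5) to 16 of the 16 and 73 (without block 3) to 90 of the 97 were found again. Cells with 1500 or more genes kept 16 and 72. With a pseudocount of 10 TPM the counts were 9 and 54. Against all other T cells pooled they were 28 and 250, and without the dividing class 29 genes were higher. The cause was not tested. The share of HIP class cells with 3 or more markers was 62.7% to 80.8% with a block left out, the highest without block 1, and that of Ins class cells 61.5% to 78.9%. The count of spread genes, 29, ranged from 14 (without block 1) to 30 with a block left out, was 48 by the SD of log2 values, of which 1 was among the 29, and 52 with a minimum mean of 10 TPM. Of 120 detection shares, 3 left their interval at a threshold of 10 TPM and 1 in cells with 1500 or more genes. The leaving out of cells with B cell transcripts was chosen after seeing the data. TPM keeps no depth, so precision is limited by cell numbers. No paired analysis was possible because the replicate numbers only name cells in accession order and each sort is 1 sample.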

Other observations

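Pecam1, which encodes the adhesion protein CD31, was detected in 22.5% of the HIP and 21.3% of Ins class cells, in 6.56% and 4.00% of cluster 2, in none of 115 Tregs and in 14.3% of dividing cells. It stood on the list of endothelial genes, of which Cdh5, the endothelial cadherin, was under 1 TPM in every class cell. Nt5e, which encodes the ectoenzyme CD73, was detected in 25.2% and 47.5% of class cells, and Folr4, the other member of a pair used to describe anergic CD4 T cells, in 64.9% and 75.4%. Both genes together were detected in 17.1% of the HIP (10.6% to 25.4%) and 44.3% of Ins class cells (31.5% to 57.6%), against 18.0% and 32.0% of cluster 2, 25.2% of Tregs and 54.3% of dividing cells.

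Of 12 dissociation and stress genes, none was higher or lower than all 4 comparators, and the median of the mean difference was -0.12. A median of 3 of them was detected per HIP and 2 per Ins class cell, against 2 to 4 in the comparators. Over the 5 blocks of class cells, the shares of the 5 most often detected ran from 43.8% to 83.1% for Junb, 28.8% to 52.2% for Zfp36, 17.3% to 39.0% for Ier2, 9.09% to 48.1% for Dusp1 and 13.0% to 30.5% for Dnajb1, and overlapped those of the comparator blocks for each. The part of cell handling in the class values was not tested.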
